A study of Homo sapiens with 19 samples.

Results

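The genes described here are 40 human genes of the ATF4 amino acid response. They were listed from what is known of ATF4 and were chosen because the group was higher in total RBFOX2 knockdown, so their values in that knockdown describe the choice and are given without a test. Reads across annotated introns were found for 39 of the 40, since CEBPB has no intron, and 38 passed the filter on low counts in the embryonic stem cell libraries, NUPR1 being the other exception. Across the series 22760 gene names had reads and 13393 passed that filter.

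ATF4 is a bZIP transcription factor whose mRNA is translated when the initiation factor eIF2 is phosphorylated, as happens when cells lack amino acids, misfold proteins in the endoplasmic reticulum or sense other stress. It binds with C/EBP family partners to composite sites and switches on genes that make and import amino acids, serine synthesis and mitochondrial one-carbon enzymes among them, together with factors such as DDIT3 and TRIB3 that shape or limit the response. Pluripotent stem cells grow fast and use serine, glycine and one-carbon units heavily.

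The libraries were ribosomal RNA-depleted RNA-seq of 3 human cell lines. A375 is a melanoma line and gave 3 libraries, from total RNA and from the nuclear and the cytoplasmic fraction of a mild detergent lysis. HEK293, of embryonic kidney origin, and HUES66, human embryonic stem cells, gave 1 library each, titled wild type and with no doxycycline dose given. The other 14 libraries were HUES66 treated with doxycycline at 1 ug/ml, controls included. The knockdowns used Cas13d, an RNA-guided RNA-cutting enzyme, by the series title, and the labels give the controls as wild type without saying whether they carry it. They were control (24 hr replicate 2, 48 hr, 96 hr), Total KD, which targets RBFOX2 as a whole (24 hr replicate 1, 48 hr, 96 hr), and N-short KD and N-long KD, each aimed at one RBFOX2 isoform (both 24 hr replicates, 48 hr, 96 hr). RBFOX2 is an RNA-binding splicing regulator. The 24 hr replicate 1 set thus has no library titled control, and the 24 hr replicate 2 set has no Total KD. Wild-type HUES66 may be the control of the 24 hr replicate 1 set, but the labels do not say so. The guide sequences, the promoter that drives Cas13d and the number of clones are not given in the labels. Because the labels do not say whether libraries came from separate cultures, p-values measure only the spread between these libraries.

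Levels are junction reads scaled to the library's reads assigned to single genes (counts per 1e6, CPM), summed over a gene's annotated introns. They compare 1 gene between libraries, not genes with each other, because intron number differs. In bulk RNA, fewer cells with a transcript and less of it per cell cannot be told apart. The treated libraries held 9622841 to 14625040 junction reads, wild-type HUES66 27937149, A375 total RNA 8412005, its nuclear fraction 6499183, its cytoplasmic fraction 22344622 and HEK293 9605334. RBFOX2 was at 126 to 133 CPM in the controls, 51.1, 83.3 and 80.2 in Total KD at 24, 48 and 96 hr, 76.7 to 92.7 in N-long KD and 113 to 128 in N-short KD. The summed level of 9 pluripotency markers was 3239 to 4988 CPM in treated HUES66, against 10.6 in A375 and 50.9 in HEK293, and the lists for mesoderm, endoderm, neural ectoderm and trophoblast reached at most 2.16, 1.03, 9.23 and 6.42 CPM there. ELAVL1, an RNA-binding protein outside the list, moved with Total KD: it was at 26.9, 52.9 and 62.5 CPM in Total KD at 24, 48 and 96 hr and at 103, 80.4 and 93.0 in the controls, and its part in any result below was not tested.

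The composite C/EBP-ATF element that ATF4 uses has a core written TGATGNAA. RefSeq promoter windows of 300 bases (GRCh38.p14, 250 before to 50 from the start site) were matched for 31 of the 40 genes, in 50 windows. On either strand, TGATGNAA was found in windows of 9 of these 31 genes and in 9 of the 50 windows, while 1270 of all 35116 windows held it (3.62%). The narrower TGATGCAA, which is contained in it, was in windows of 5 of the 31 genes. By window, 5 of the 50 held it, and 304 of all windows did (0.866%). The promoter set used held no window for PSPH, SHMT2, PYCR1, SLC7A11, INHBE, NUPR1, GPT2, EIF4EBP1 and ALDH1L2. A match is a description of the letters and not a binding site. The stretches around the matches before a start site are shown because they hold the sequence the group is known for, with the matching letters in capitals, each 5′ to 3′ on the gene's strand.
ASNS, chr7:97872458-97872487, minus strand: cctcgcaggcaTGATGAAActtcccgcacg
CHAC1, chr15:40953251-40953280, plus strand: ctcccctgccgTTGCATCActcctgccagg
ATF3, chr1:212565180-212565259, plus strand: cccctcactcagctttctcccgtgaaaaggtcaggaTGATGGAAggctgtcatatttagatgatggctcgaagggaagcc
JDP2, chr14:75427942-75428021, plus strand: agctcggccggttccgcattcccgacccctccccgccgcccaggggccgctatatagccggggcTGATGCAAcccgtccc
CEBPG, chr19:33374033-33374112, plus strand: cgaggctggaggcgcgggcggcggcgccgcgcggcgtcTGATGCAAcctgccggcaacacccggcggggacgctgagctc
SLC1A5, chr19:46784893-46784922, minus strand: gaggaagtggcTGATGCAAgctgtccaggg
SLC1A4, chr2:64989370-64989399, plus strand: cgtccgcgttcgcggctcccgtTTGCATCA

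In ASNS the match began 68 bases before the start site, in CHAC1 209, in ATF3 191, in SLC1A5 97, in CEBPG 42, in JDP2 16 and in SLC1A4 7. In CHAC1 and SLC1A4 the letters lie on the opposite strand, so the printed strand shows the reverse complement TTGCATCA. SLC3A2 and SLC7A1 held the motif after the start site. The 9 genes with a match did not all behave alike in Total KD: CHAC1, ASNS, ATF3 and SLC1A4 are among those with the highest values there, and the difference for CEBPG was near 0.

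Total KD libraries showed the list higher in all of its functional groups, and this is the pattern by which it was picked. The fitted log2 difference from control was above 0 for 35 of 38 genes, where 49.8% of all genes tested were above 0, and at least 1 for 11 of 38, against 0.403% of all genes. The median over the 38 genes was 0.49, and -0.00 over all genes. By role, the medians were 1.07 for the 5 stress effectors, 0.75 for the 6 transcription factors measured, 0.62 for the 8 transporters, 0.49 for the 6 serine and one-carbon enzymes, 0.41 for the 7 other metabolic enzymes and 0.27 for the 6 secreted and other genes. Total KD was above control at 48 hr as well as at 96 hr for 34 of 38 genes (28.0% of all genes), the exceptions being ALDH18A1, SLC38A2, CEBPG and GDF15. It was above the mean of the isoform knockdowns in 3 of 3 shared sets for the same number, 34 of 38, with the same 4 exceptions (18.6% of all genes). With ASNS counted over all its introns, all 3 Total KD libraries exceeded all 3 controls for 23 of 38 (4.31% of all genes) and exceeded all 11 other treated libraries for 21 of 38 (0.650% of all genes). On the few ASNS reads that no other gene shares, which the fits use, these counts were 22 and 20. The plot of levels by library shows ATF4 and the genes with the largest differences.

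**Figure D1:**
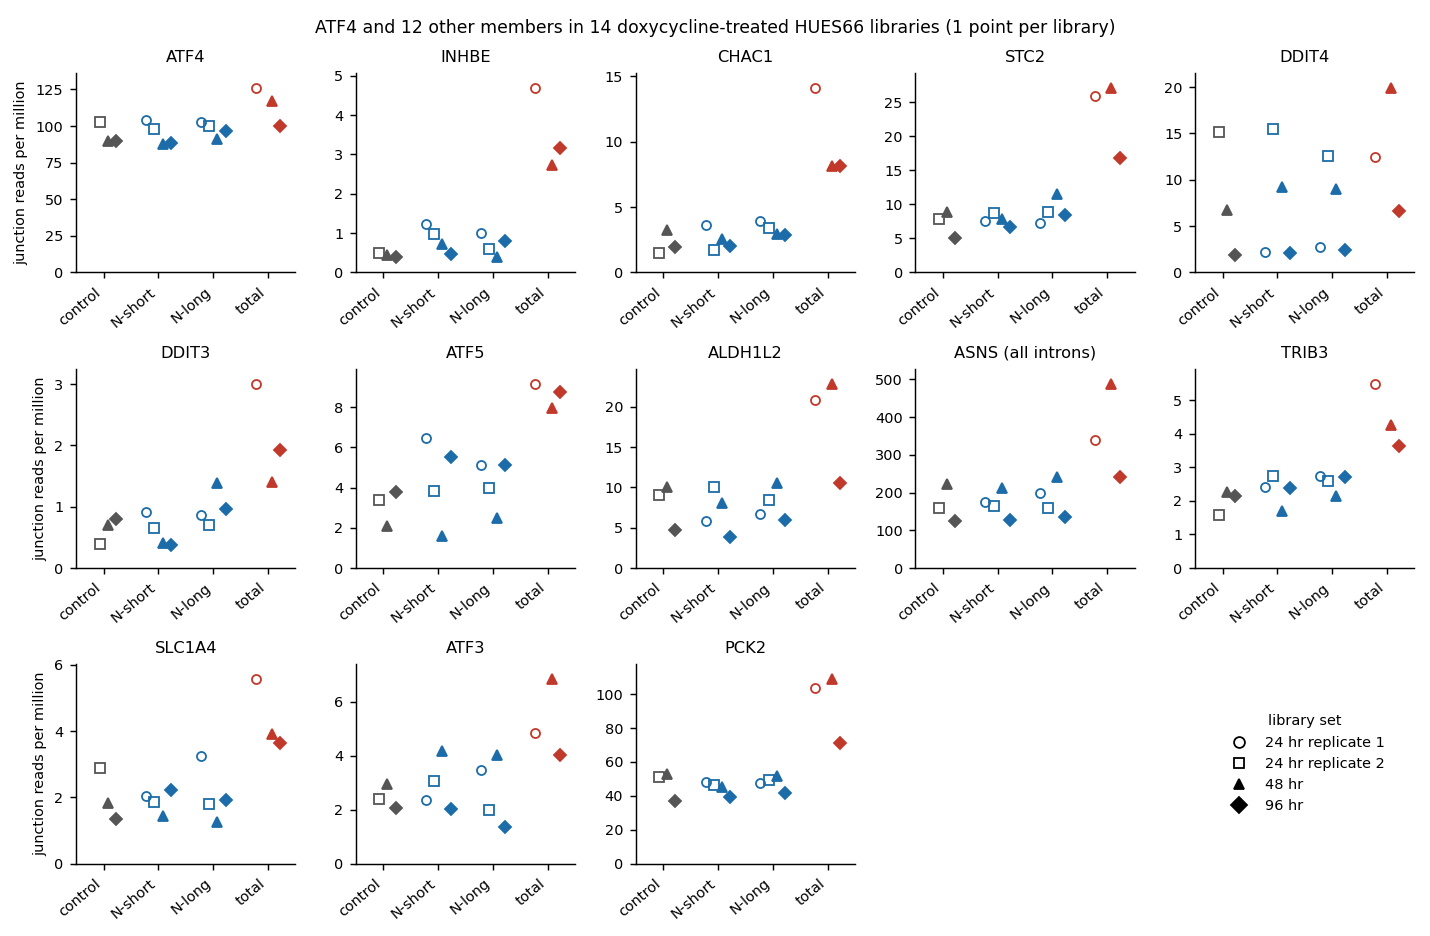
Junction reads per 1e6 (CPM, vertical axes from 0) in the 14 treated HUES66 libraries by group, for ATF4 and 12 other genes, with symbols for the library set and ASNS counted over all its introns. The 3 Total KD libraries lie above the 11 others for genes such as INHBE (2.72 to 4.69 against 0.386 to 1.22 CPM), while those of ATF4 (100 to 126) overlap the other groups.

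ATF4 itself (ENSG00000128272.14, chromosome 22, 39519695 to 39522685, hg38) showed a small difference. It was at 103, 90.0 and 89.5 CPM in the controls at 24, 48 and 96 hr and at 126, 117 and 100 in Total KD. In N-short KD it was at 104, 97.7, 87.7 and 88.4 CPM, and in N-long KD at 103, 100, 91.5 and 96.4, in the order 24 hr replicate 1, 24 hr replicate 2, 48 hr and 96 hr, which is kept below. The 24 and 48 hr Total KD libraries were the 2 highest of the 14, and the 96 hr one lay within the range of the other groups. The fitted log2 difference was 0.26 (SE 0.0537), and it was 0.19 without the 48 hr and 0.32 without the 96 hr Total KD library. ATF4 is controlled largely at translation, which these libraries do not measure.

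Among its fellow factors, ATF5, DDIT3 and ATF3 were higher in every Total KD library than in any control. ATF5, a close relative of ATF4 that is also translated under stress, was at 3.37, 2.08 and 3.80 CPM in the controls and 9.17, 7.94 and 8.75 in Total KD. Its isoform knockdown libraries ran from 1.61 to 6.46 CPM, with N-short KD at 6.46, 3.84, 1.61 and 5.54 and N-long KD at 5.13, 4.00, 2.47 and 5.11. The groups did not overlap with Total KD, and the log2 difference was 1.38 (SE 0.231), or 0.99 without the 48 hr Total KD library. DDIT3, which encodes the pro-apoptotic factor CHOP, was at 0.396, 0.694 and 0.792 CPM in the controls and 3.01, 1.40 and 1.92 in Total KD. It was at 0.912, 0.658, 0.403 and 0.369 CPM in N-short KD and 0.867, 0.699, 1.39 and 0.959 in N-long KD, so the 48 hr N-long library came within reach of the lowest Total KD library. Its log2 difference was 1.41 (SE 0.419), on a few reads per library.

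ATF3, an early stress-induced repressor, was at 2.38, 2.95 and 2.06 CPM in the controls and 4.84, 6.84 and 4.04 in Total KD, a log2 difference of 1.02 (SE 0.241). In N-short KD it was at 2.36, 3.07, 4.19 and 2.03 CPM and in N-long KD at 3.47, 2.00, 4.02 and 1.36, so the 48 hr N-short library exceeded the lowest Total KD library. JDP2, a bZIP repressor that partners ATF and C/EBP proteins, was at 5.35, 6.86 and 2.46 CPM in the controls and 7.56, 8.90 and 3.84 in Total KD, groups that overlap (log2 difference 0.49, SE 0.183). CEBPG, a C/EBP partner of ATF4, had a log2 difference of -0.01 (SE 0.214). NUPR1, a stress-induced chromatin protein, had at most 0.294 CPM in any treated library, and CEBPB was not measured.

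The 5 stress effectors include the gene with the second largest difference. CHAC1 (ENSG00000128965.12, chromosome 15, 40952962 to 40956519), which degrades glutathione, was at 1.49, 3.21 and 1.98 CPM in the controls and 14.1, 8.16 and 8.17 in Total KD. N-short KD gave 3.65, 1.75, 2.58 and 2.03 CPM and N-long KD 3.90, 3.40, 2.94 and 2.88, all below the lowest Total KD library. The log2 difference was 1.86 (SE 0.215), with 2.21 without the 48 hr control. TRIB3, a pseudokinase that feeds back on ATF4, was at 1.58, 2.26 and 2.14 CPM in the controls and 5.50, 4.27 and 3.65 in Total KD, with the 8 isoform knockdown libraries at 1.69 to 2.75 (log2 difference 1.07, SE 0.248). SESN2, which senses leucine upstream of mTORC1, and EIF4EBP1, which restrains cap-dependent translation, had log2 differences of 0.74 (SE 0.143) and 0.61 (SE 0.0843).

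DDIT4, an mTORC1 inhibitor, varied more between library sets than between knockdowns. The controls were at 15.2, 6.77 and 1.9 CPM and Total KD at 12.5, 19.9 and 6.63, so the groups overlap. In N-short KD it was at 2.21, 15.5, 9.27 and 2.12 CPM and in N-long KD at 2.75, 12.6, 8.96 and 2.40. The 24 hr replicate 1 libraries of the isoform knockdowns and wild-type HUES66 (2.92 CPM) were thus several times lower than every 24 hr replicate 2 library. The fitted log2 difference in Total KD was 1.66 (SE 0.184) with the library set in the model and 0.81 (SE 0.546) where both 24 hr sets shared 1 term.

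All 6 serine and one-carbon enzymes were above 0 in Total KD. ALDH1L2 (ENSG00000136010.13, chromosome 12, 105019784 to 105084577), the mitochondrial 10-formyltetrahydrofolate dehydrogenase, was at 9.11, 10.1 and 4.75 CPM in the controls and 20.9, 22.9 and 10.5 in Total KD. The lowest Total KD library was the 96 hr one, just above the highest control, and the isoform knockdowns ran from 3.88 to 10.6 CPM. Its log2 difference was 1.30 (SE 0.149). The 3 enzymes of serine synthesis from 3-phosphoglycerate followed with 0.69 (SE 0.0462) for PSAT1, 0.46 (SE 0.0349) for PHGDH and 0.31 (SE 0.0737) for PSPH. SHMT2, which splits serine to glycine in mitochondria, had 0.50 (SE 0.0402), and MTHFD2, the next mitochondrial folate enzyme, had 0.48 (SE 0.0455). For PSAT1 and SHMT2 every Total KD library was above all 11 others.

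ASNS (ENSG00000070669.16, chromosome 7, 97852118 to 97872542), asparagine synthetase, is the textbook amino acid response gene. Only 9 of its 21 annotated introns belong to ASNS alone, the rest being shared with AC079781.5, so its values are given over all introns. On that count it was at 158, 223 and 124 CPM in the controls and 339, 489 and 241 in Total KD. N-short KD gave 176, 164, 213 and 127 CPM and N-long KD 198, 158, 240 and 136, all below the lowest Total KD library. The fold difference was 2.01 (log2 1.00, SE 0.0495), and the few unshared reads gave 1.19 (SE 0.435). PCK2, which makes phosphoenolpyruvate in mitochondria, was at 51.2, 53.0 and 37.1 CPM in the controls and 104, 109 and 71.0 in Total KD, and the 8 isoform knockdown libraries lay between 39.5 and 51.8. Its log2 difference was 1.00 (SE 0.0683), the same as that of ASNS.

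The remaining metabolic enzymes had smaller differences. GPT2, the mitochondrial alanine transaminase, had a log2 difference of 0.44 (SE 0.0661), and PYCR1, the last step of proline synthesis, 0.41 (SE 0.0681). CTH and CBS, the transsulfuration enzymes that lead to cysteine, had 0.36 (SE 0.0858) and 0.15 (SE 0.0507). CBS has a near-identical copy, CBSL, so its reads may be split and its values are uncertain. ALDH18A1, which starts proline synthesis, went the other way with -0.14 (SE 0.0395).

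Of the 8 amino acid transporters, 7 had all 3 Total KD libraries above the 11 others. SLC1A4 (ASCT1), a neutral amino acid exchanger, was at 2.87, 1.82 and 1.35 CPM in the controls and 5.57, 3.90 and 3.65 in Total KD (log2 difference 1.02, SE 0.273), with 0.71 when the 96 hr control was left out. In N-short KD it was at 2.05, 1.86, 1.45 and 2.21 CPM and in N-long KD at 3.25, 1.80, 1.24 and 1.92, each below the lowest Total KD library. SLC7A11, the cystine importer xCT, had a log2 difference of 0.93 (SE 0.0846), with control libraries at 26.8 to 40.2 CPM and Total KD libraries at 70.9 to 76.8. The leucine exchanger LAT1 is a pair of subunits, and both differed alike in sign: SLC7A5 by 0.77 (SE 0.0807) and its heavy chain SLC3A2 by 0.48 (SE 0.0466). The glycine transporter SLC6A9 had 0.75 (SE 0.101), the glutamine transporter SLC1A5 0.40 (SE 0.0483) and the cationic transporter SLC7A1 0.34 (SE 0.0593). SLC38A2 (SNAT2), a sodium-coupled transporter known for its adaptive induction on amino acid withdrawal, was the exception with 0.02 (SE 0.0388).

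The secreted products were split. INHBE (ENSG00000139269.2, chromosome 12, 57452323 to 57459280), the inhibin beta E chain, had the largest difference of the 38 genes. It was at 0.495, 0.434 and 0.396 CPM in the controls and 4.69, 2.72 and 3.17 in Total KD. N-short KD gave 1.22, 0.987, 0.726 and 0.461 CPM and N-long KD 1.01, 0.600, 0.386 and 0.799, which overlap the controls and lie below Total KD (log2 difference 2.77, SE 0.388). STC2, stanniocalcin 2, was at 7.82, 8.94 and 5.07 CPM in the controls and 25.9, 27.1 and 16.8 in Total KD, with 7.60, 8.77, 7.90 and 6.64 in N-short KD and 7.30, 8.89, 11.6 and 8.47 in N-long KD (log2 difference 1.71, SE 0.141). GDF15, a stress-induced cytokine that signals to the brainstem, was not higher. It was at 0.594, 1.91 and 0.634 CPM in the controls and 0.367, 1.47 and 0.192 in Total KD, a log2 difference of -0.60 (SE 0.465) on very few reads. VLDLR, a lipoprotein receptor, had 0.31 (SE 0.0680), XPOT, the nuclear exporter of tRNA, 0.23 (SE 0.0359), and CLIC4, a chloride intracellular channel protein, 0.19 (SE 0.0430).

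**Figure D2:**
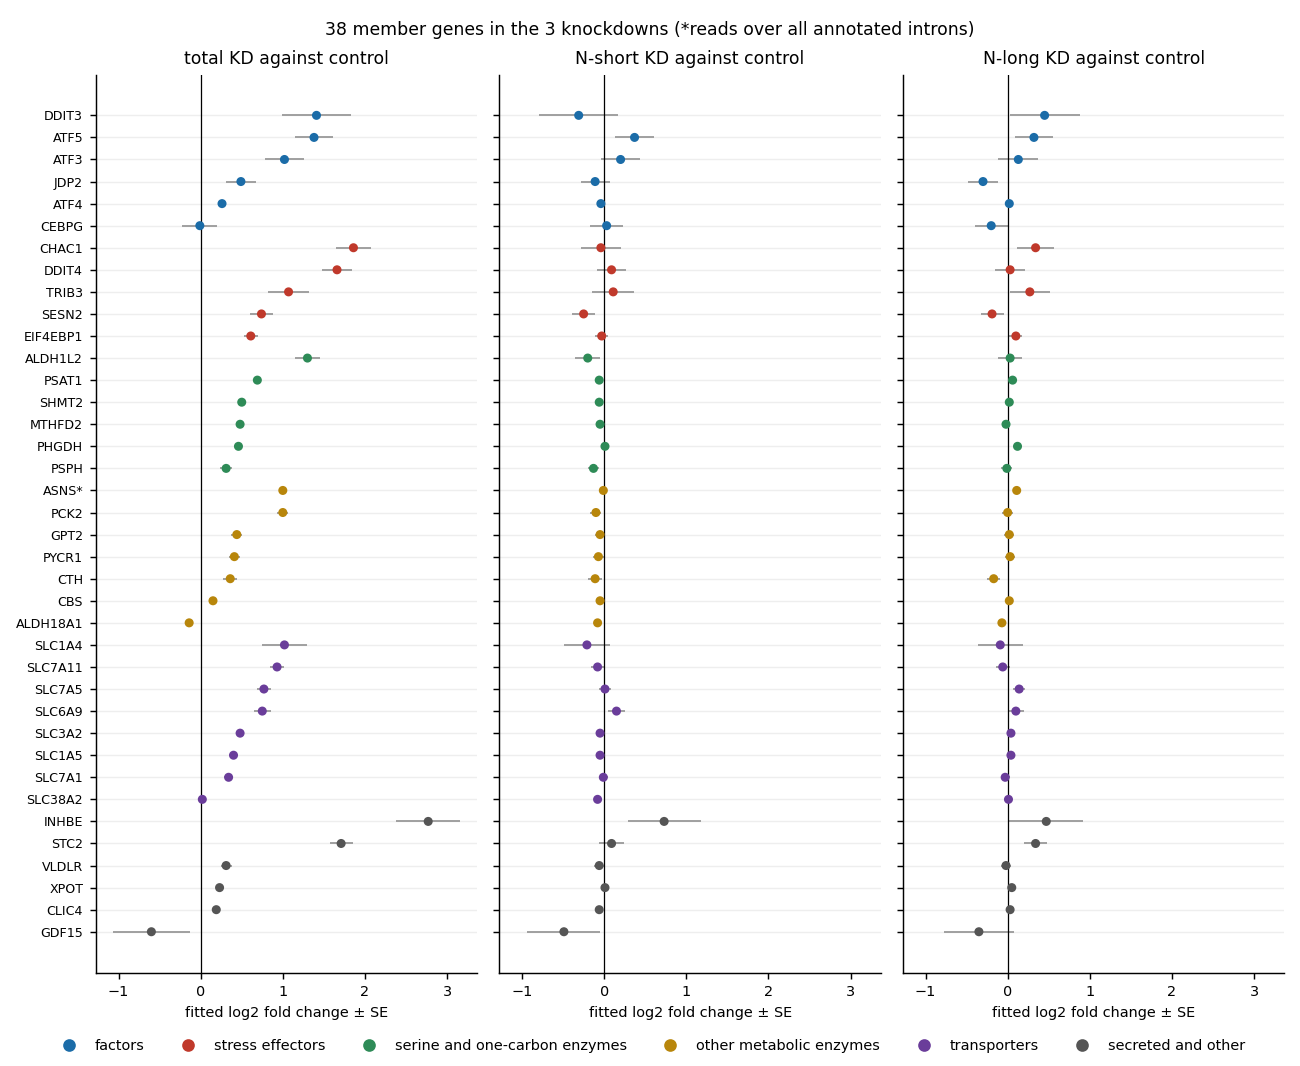
Fitted log2 fold changes against control (points) with their standard errors (bars) for 38 genes in Total KD, N-short KD and N-long KD, coloured by role, ASNS over all introns. In Total KD 35 of 38 points lie above 0 with a median of 0.49, and in the isoform knockdowns the points scatter around 0 with medians of -0.05 and 0.03.

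By intron, the higher level in Total KD can be described further, in the same reads and the same contrast by which the list was picked. Over the 48 and 96 hr sets, 267 introns of 34 listed genes had at least 50 reads in the 4 control and Total KD libraries together, and 245 of them were higher in Total KD. In 27 of the 34 genes every such intron was higher. Introns of 1 gene are not independent of each other. The limit of 50 reads was set on control and Total KD together, and the share over introns of all genes was not counted. Within the sets, the median log2 difference of the 38 genes was 0.56 at 48 hr and 0.52 at 96 hr, and the difference was larger at 48 hr for 25 of 38 genes (65.8%, against 50.3% of all genes). In the 24 hr replicate 1 set, which can be compared only with the isoform knockdowns or with wild-type HUES66, the medians were 0.59 and 0.56.

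In the N-short KD libraries no change of the listed genes was detected. RBFOX2 as a whole was at 113 to 128 CPM there and at 126 to 133 in the controls. The level of the N-short isoform alone was not measured here, so these values do not show how far it was depleted. With edgeR's quasi-likelihood test and Benjamini-Hochberg adjustment over all 13393 genes, 0 of 38 passed an adjusted p of 0.05 in N-short KD against control (0.00747% of all genes did), with 2 of 38 at an unadjusted p under 0.05 (4.05% of all genes). DESeq2 also called 0. The median log2 fold change was -0.05, and 27 of 38 were below 0, where 6783 of all 13393 genes were. The controls are the same libraries as in the choosing contrast. ATF4 had -0.04 (SE 0.0499), CHAC1 -0.04 (SE 0.245), ASNS over all introns -0.01 (SE 0.0472) and SLC7A11 -0.08 (SE 0.0845). INHBE, at 0.73 (SE 0.444, adjusted p 0.999), was the highest value of the list and GDF15, at -0.49 (SE 0.444), the lowest. The 2 genes with a small unadjusted p were ALDH18A1 at -0.08 (SE 0.0359) and SLC38A2 at -0.08 (SE 0.0350).

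N-long KD gave a similar picture. Against control, 0 of 38 genes passed by edgeR (0.0224% of all genes did) and 0 by DESeq2, with 4 of 38 at an unadjusted p under 0.05, or 5 with ASNS over all introns (4.44% of all genes). The median was 0.03, and 25 of 38 were above 0, where 50.5% of all genes were. The lowest adjusted p was 0.552 for PHGDH, the first enzyme of serine synthesis, at 0.12 (SE 0.0318). STC2 was at 0.34 (SE 0.143), CTH at -0.17 (SE 0.0807) and ALDH18A1 at -0.07 (SE 0.0357), each with an adjusted p of 1.00. For ATF4 the value was 0.02 (SE 0.0493). RBFOX2 was lower in these N-long KD libraries, at 76.7 to 92.7 CPM, than in the controls, a range that overlaps that of Total KD at 48 and 96 hr.

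The isoform knockdowns were also compared with each other, in a contrast that names neither control nor Total KD. It is still not independent of the Total KD fit. The 24 hr replicate 1 set has no control, so that fit reached its Total KD library through the isoform knockdown libraries. Without N-long KD of 24 hr replicate 1, the fitted log2 difference of DDIT3 in Total KD moved from 1.41 to 1.23. No gene of 38 passed (0.0149% of all genes did) with edgeR or with DESeq2, and 7 of 38 had an unadjusted p under 0.05, all higher in N-long KD (5.07% of all genes in either direction). ASNS over all introns, at 0.12 (SE 0.0420, adjusted p 0.889), made that 8. The median was 0.08, and 29 of 38 genes were above 0, where 50.3% of all genes were. The serine and one-carbon group had 6 of 6 above 0 and the factors 2 of 6. PHGDH had the lowest adjusted p, 0.588, at 0.10 (SE 0.0287), from 475, 436, 578 and 367 CPM in N-short KD to 494, 453, 632 and 405 in N-long KD. PSAT1, SHMT2, CLIC4, SLC38A2, SLC3A2 and SLC1A5 were the other 6, at 0.08 to 0.12. The N-long library was above the N-short library in 4 of 4 sets for 6 genes, CHAC1, PSAT1, PHGDH, SHMT2, SLC38A2 and CLIC4 (5.96% of all genes), and below it in 4 of 4 for CEBPG alone (8.16% of all genes). Among these 7 genes the fitted differences were at most 0.12 in size except for CHAC1 at 0.38 (SE 0.201) and CEBPG at -0.23 (SE 0.178).

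Between the times, many of the genes passed. Comparing the 4 libraries at 96 hr with the 4 at 48 hr, 25 of 38 genes passed an adjusted p of 0.05 by edgeR, where 59.6% of all genes did. Of these 19 were lower at 96 hr (30.0% of all genes) and 6 higher (29.5% of all genes), and the median was -0.11 over the list and -0.01 over all genes. Each time is 1 set of libraries, so time and set cannot be told apart. The plot of 96 hr against 48 hr shows the genes by role.

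**Figure D3:**
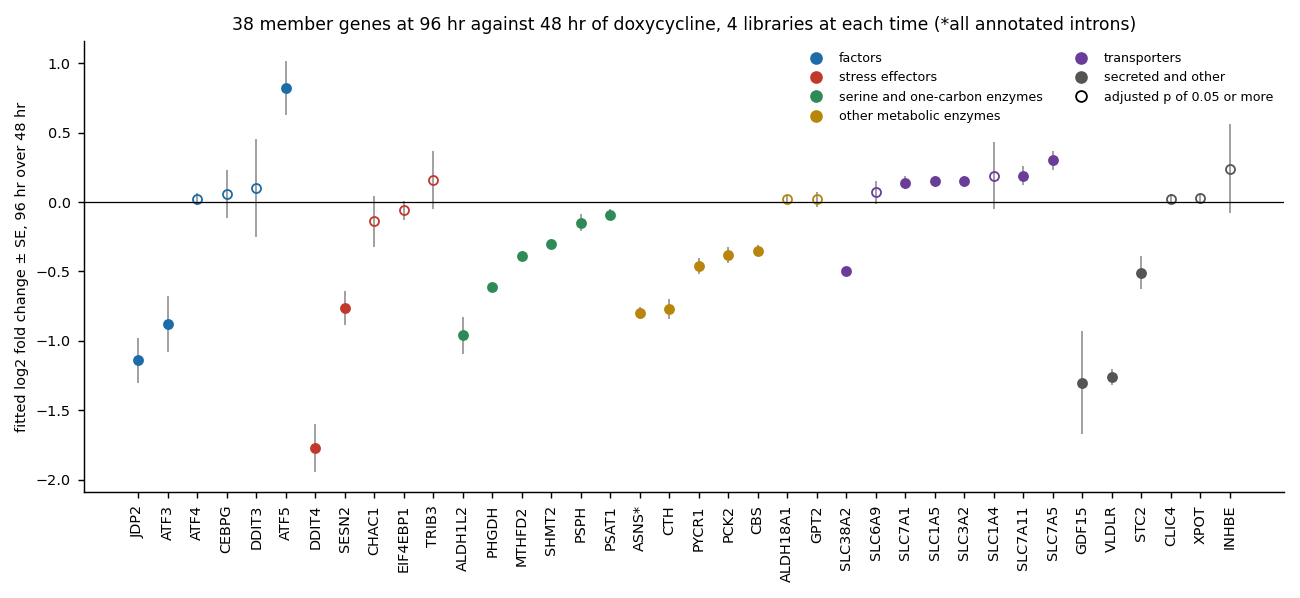
Fitted log2 fold changes, 96 hr against 48 hr, with standard errors for 38 genes grouped by role, filled where the adjusted p was under 0.05 and open otherwise, ASNS over all introns. All 6 serine and one-carbon enzymes lie below 0, and 5 of the 8 transporters passed above 0.

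Enzymes fell. All 6 serine and one-carbon enzymes were lower at 96 hr: ALDH1L2 by a log2 fold change of -0.96 (adjusted p 1.0e-07), PHGDH by -0.61 (7.7e-19), MTHFD2 by -0.39, SHMT2 by -0.30, PSPH by -0.15 and PSAT1 by -0.09 (0.0388). PHGDH was at 573 to 811 CPM in the 48 hr libraries and 355 to 504 at 96 hr, with no overlap. Of the 7 other metabolic enzymes 5 fell. ASNS fell by -0.80 over all introns (SE 0.0410, adjusted p 5.2e-18) and by -1.17 over its unshared introns (adjusted p 0.00992), with 213 to 489 CPM at 48 hr and 124 to 241 at 96 hr, where only Total KD at 96 hr reached the lower 48 hr libraries. CTH fell by -0.77 (3.5e-11), PYCR1 by -0.46, PCK2 by -0.38 and CBS, whose reads are uncertain, by -0.35. GPT2 and ALDH18A1 were both at 0.02 and did not pass.

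In the fit 5 of 8 transporters passed in the other direction, but not all of these rose in every group. SLC7A5 rose by 0.30 (SE 0.0666, adjusted p 2.3e-04), SLC7A11 by 0.19, SLC3A2 by 0.15, SLC1A5 by 0.15 and SLC7A1 by 0.14. SLC38A2 alone fell, by -0.50 (adjusted p 1.6e-15), from 1119 to 1227 CPM in the 48 hr libraries to 758 to 815 at 96 hr. SLC1A4 and SLC6A9 did not pass (0.19 and 0.07). The rises were small, and with both 24 hr sets sharing 1 term in place of the library set the number of genes that passed as higher was 2 and not 6.

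Among factors and stress effectors, DDIT4 fell most. Its 48 hr libraries were at 6.77 to 19.9 CPM and its 96 hr libraries at 1.9 to 6.63, without overlap (change of -1.77 on the log2 scale, SE 0.171, adjusted p 8.9e-11). JDP2 fell by -1.14 (1.8e-07), from 6.86, 8.90, 5.56 and 5.87 CPM in control, Total KD, N-short KD and N-long KD at 48 hr to 2.46, 3.84, 3.41 and 2.16 at 96 hr. ATF3 fell by -0.88 (3.2e-04) and SESN2 by -0.76. ATF5 rose by 0.82 (SE 0.193, adjusted p 4.3e-04), from 2.08, 7.94, 1.61 and 2.47 CPM to 3.80, 8.75, 5.54 and 5.11 in the same order of groups, and by 1.29 without the 48 hr Total KD library. It was higher at 96 hr in 4 of 4 groups. ATF4 itself was at 0.02 (SE 0.0443, adjusted p 0.757), and DDIT3, CHAC1, TRIB3, EIF4EBP1 and CEBPG did not pass.

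Of the secreted and other genes, GDF15, VLDLR and STC2 fell. VLDLR had 140, 178, 149 and 157 CPM in control, Total KD, N-short KD and N-long KD at 48 hr and 61.3, 69.6, 57.4 and 62.1 at 96 hr, a change of -1.26 on the log2 scale (SE 0.0555, adjusted p 1.8e-19). At 24 hr VLDLR was at 90.2 to 101 CPM in the replicate 2 set and 48.6 to 78.7 in the replicate 1 set. GDF15, with 1.91, 1.47, 0.887 and 1.70 CPM at 48 hr and 0.634, 0.192, 0.923 and 0.559 at 96 hr, fell by -1.30 (SE 0.371, adjusted p 0.00301), although the N-short KD library was not lower at 96 hr. STC2 fell by -0.51 (4.3e-04). INHBE, XPOT and CLIC4 did not pass, at 0.24, 0.03 and 0.02.

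Outside Total KD the listed genes still varied together to a degree. After the mean of each library set was removed, the median pairwise Pearson r of the 30 listed genes with a mean of at least 50 reads was 0.31 over the 11 control, N-short KD and N-long KD libraries, against 0.00 over 10108 genes. The median r with ATF4 was 0.58, and PYCR1, CBS and XPOT were the most like it. The points share libraries and depth, and the values are a description. Over the 8 isoform knockdown libraries alone the medians were 0.43 and 0.69. There each set holds only 1 N-short KD and 1 N-long KD library. These medians thus rest on 1 difference per set, the same differences as in the contrast between the isoform knockdowns.

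Other genes of the pathway come from lists that hold none of the 40, and their values in Total KD are given as a description, since the 40 were chosen on that contrast. The 18 genes for stress kinases, phosphatases and eIF2 subunits, which act upstream of ATF4, had a median log2 difference of 0.03 in Total KD, with 13 above 0 and a range of -0.10 to 0.22. The eIF2 kinases EIF2AK1 and EIF2AK3 were at -0.09 (SE 0.0424) and -0.08 (SE 0.0737), and the phosphatase subunit PPP1R15A, itself an ATF4 target, at 0.22 (SE 0.286). Of 36 further amino acid and one-carbon genes 21 were above 0, with a median of 0.07. SLC43A1, a leucine transporter, was at 0.86 (SE 0.124), ASS1, argininosuccinate synthase, at 0.69 (SE 0.0698) and PRODH, proline dehydrogenase, at 0.47 (SE 0.140). On the lower side ALDH1L1, the cytosolic relative of ALDH1L2, was at -0.53 (SE 0.353), SLC36A4 at -0.30 (SE 0.0781) and MTHFD2L at -0.24 (SE 0.158). Of 28 further stress-response genes and partner factors 18 were above 0, with a median of 0.11. VEGFA was at 0.82 (SE 0.0985), BATF3 at 0.67 (SE 0.580) and HERPUD1, of endoplasmic reticulum protein disposal, at 0.48 (SE 0.0949). In the other direction PPARGC1A was at -0.95 (SE 0.446), FOS at -0.40 (SE 0.279) and DDIT4L at -0.36 (SE 0.441). These lists were compiled with results of these libraries known.

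In the isoform contrasts 0 of these 82 genes passed with edgeR or with DESeq2, and at an unadjusted p under 0.05 edgeR gave 1 for N-short KD and 4 for N-long KD against control, and 3 for the isoforms against each other, where 4.05%, 4.44% and 5.07% of all genes did. At 96 hr against 48 hr, 4 of the 18 upstream genes rose and 3 fell, 11 of the 36 further amino acid genes rose and 13 fell, and 7 of the 28 further stress genes rose and 14 fell. Over the 82 genes that is 26.8% higher and 36.6% lower, beside 29.5% and 30.0% of all genes. EIF2B1 and EIF2B4, subunits of the exchange factor that recycles eIF2, rose by 0.55 and 0.50 (adjusted p 3.4e-10 and 1.4e-09). SLC1A1, a glutamate transporter, fell by -1.81 (3.7e-15), from 17.9 to 19.7 CPM to 4.83 to 5.67. ALDH1L1 fell by -1.75 (1.6e-06) and SLC7A3, a cationic amino acid transporter, by -1.02 (6.5e-20), while SLC43A2 and PYCR3 rose by 0.62 and 0.61. TXNIP, which limits glucose uptake and is nutrient-sensitive, fell by -1.91 (6.1e-16).

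Splicing of the listed genes was looked at in the authors' deposited tables of splicing events. Over the 9 tables, 1023 events lay in listed genes, which were 23 to 25 of the 40 in each table. The same event can be counted in several tables. Of the 1023, 0 passed both an adjusted p under 0.05 and an inclusion difference of at least 0.1. At an unadjusted p under 0.05 there were 36. These 36 are 3.52% of the events, within the 3.33% to 5.63% of all events in the same tables. By knockdown, 0 of 366 events passed in Total KD (0.0823% of all events did), 0 of 328 in N-short KD (0.00544%) and 0 of 329 in N-long KD (0.0174%). In the authors' deposited tables the lowest adjusted p was 0.288, for a retained intron of DDIT3 (chromosome 12, 57517268 to 57517753) in Total KD at 96 hr with a control minus knockdown inclusion difference of 0.57. An adjusted p above the threshold does not show that inclusion was equal.

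Junction reads show several alternative forms within the list. VLDLR has an exon that encodes its O-linked sugar domain, between the introns at 2650517 to 2651414 and 2651499 to 2651873 of chromosome 9, and 27.8% of 892 junction reads that left the preceding exon entered it over the 14 treated libraries, with control libraries at 29.3% to 33.3% and Total KD libraries at 28.3% to 32.8%. The share ran from 20.4% to 45.2% in N-short KD and from 9.30% to 34.2% in N-long KD, so all groups overlap. For this exon in N-long KD at 24 hr, the authors' rMATS tables give a control minus knockdown inclusion difference of 0.15. Its unadjusted rMATS p was 0.0165, and it did not pass after adjustment. In PSAT1, the junction from 78317805 to 78328980 of chromosome 9, which skips an exon, took 5.92% of 1114 reads from its donor in the controls and 8.26% of 2154 in Total KD, with library ranges of 3.43% to 7.57% and 6.48% to 10.6% that overlap. Within the sets that hold both, Total KD was above its control, at 10.6% against 7.57% at 48 hr and 7.27% against 3.43% at 96 hr. N-long KD at 48 hr was at 11.5% (exact 95% interval 8.73% to 14.7%), above all 3 Total KD libraries. These junction shares were not tested here. In the authors' rMATS tables of splicing events the skipped PSAT1 exon did not pass in Total KD at 96 hr. Its control minus knockdown inclusion difference there was 0.04 (rMATS adjusted p 0.696). In MTHFD2, the junction from 74198743 to 74207703 of chromosome 2 took 16.6% of 1806 reads from its donor over the treated libraries, with control libraries at 15.3% to 22.6% and Total KD libraries at 11.7% to 20.6%.

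SLC3A2, the heavy chain of several transporters, has more than 1 start. Transcripts that start upstream give reads over the 3 introns that enter the exon at 62881019 to 62881447 of chromosome 11. Transcripts that begin within it would give reads only over the next intron. Junction reads do not show where a transcript starts, and the source of the excess over the next intron was not tested. The upstream reads were 65.2% of the next-intron reads over the 3 controls (58.8% to 81.4%), 54.7% over Total KD (41.3% to 64.0%), 72.1% over N-short KD (61.3% to 88.7%) and 67.3% over N-long KD (57.7% to 85.7%). At 48 hr the next intron was at 33.3 CPM in Total KD and 20.9 in control, while the upstream introns were at 13.8 and 12.6 CPM. At 96 hr the shares were nearly level, 59.9% in Total KD and 58.8% in control, and the library ranges of Total KD and control overlap. Wild-type HUES66 was at 65.2%, A375 total RNA at 34.2% and HEK293 at 18.8%.

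The A375 fractions divided the list by role. Nuclear and cytoplasmic RNA came from 1 library each, so there is no replicate and no test, and intervals cover counting error only. Of 38 genes with at least 20 reads, 12 were at least 2-fold higher in nuclear RNA (22.8% of all genes) and 10 at least 2-fold higher in cytoplasmic RNA (19.1% of all genes). All 8 transporters were among the 12, and none of the factors or stress effectors was. SLC7A11 had the largest ratio, with 297 nuclear and 98 cytoplasmic reads, 49.0 and 4.68 CPM, a ratio of 10.4 (95% interval 8.30 to 13.3). SLC1A4 followed with 8.67 (7.19 to 10.5), VLDLR with 8.61 (5.87 to 13.1), SLC3A2 with 8.33 (7.70 to 9.04), SLC38A2 with 6.33 (6.05 to 6.62) and SLC7A5 with 6.29 (5.95 to 6.66). SLC7A1 was the least nuclear transporter at 3.19 (2.92 to 3.47). All of these encode membrane proteins, and STC2 and GDF15, which are secreted, had 5.86 (3.36 to 10.7) and 5.39 (3.52 to 8.41). SLC1A5 and SLC6A9 were at 5.14 (4.75 to 5.58) and 4.07 (3.39 to 4.90), and ALDH18A1, a mitochondrial enzyme, completed the 12 at 2.97 (2.79 to 3.17).

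**Figure D4:**
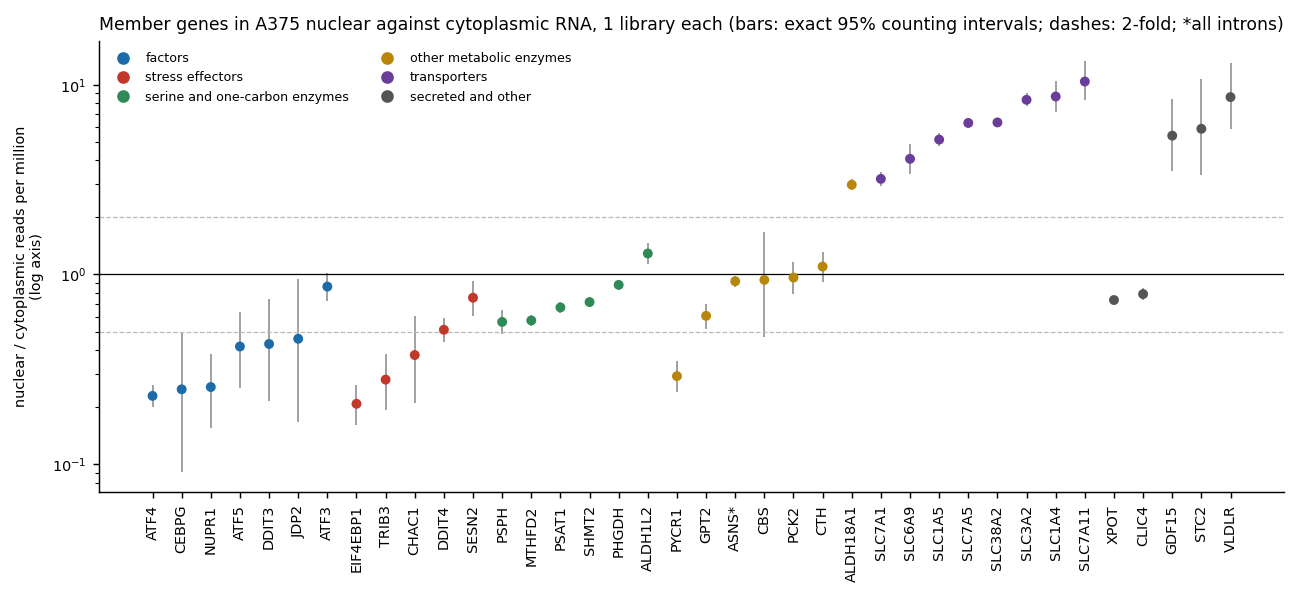
Ratio of nuclear to cytoplasmic CPM in A375 (vertical log axis) with exact 95% counting intervals, by role, 1 library per fraction, dashed lines at 2-fold in either direction, ASNS over all introns. The 8 transporters lie between 3.19 and 10.4, and ATF4 and EIF4EBP1 lie farthest on the cytoplasmic side.

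On the cytoplasmic side, 6 of 7 factors and 3 of 5 stress effectors passed 2-fold. EIF4EBP1 was 4.81-fold higher in cytoplasmic RNA (3.83 to 6.19), ATF4 4.37-fold (3.85 to 4.99), with 183 against 41.7 CPM, and CEBPG 4.04-fold (2.02 to 11). NUPR1, which A375 expresses, was 3.93-fold higher (2.62 to 6.41), TRIB3 3.58-fold (2.61 to 5.16) and PYCR1 3.44-fold (2.87 to 4.18). CHAC1, ATF5, DDIT3 and JDP2 were between 2.18-fold and 2.66-fold. The factor that did not pass was ATF3, at 0.863 nuclear to cytoplasmic (0.722 to 1.02). None of the 6 serine and one-carbon enzymes passed in either direction, from 0.562 for PSPH to 1.29 for ALDH1L2, and ASNS over all introns was at 0.921 (0.859 to 0.987). INHBE had no read in any A375 library. Under a median-ratio scaling all ratios move by 0.12 on the log2 scale, which leaves these counts at 12 and 10.

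The 3 cell lines were compared in 1 library each, wild type for HUES66, again without a test. With ASNS over all introns, A375 was the highest line for 18 of 39 genes, HUES66 for 14 and HEK293 for 7. The same shares over all genes were not counted, so these numbers do not set the list apart. Some of these ranks are near ties, such as ALDH18A1 at 201 CPM in A375 and 200 in HUES66. ATF4 differed little, at 88.2 CPM in A375 (696 reads), 132 in HEK293 (1184 reads) and 102 in HUES66 (2692 reads). The treated HUES66 libraries ranged from 87.7 to 126 CPM, so the value of HEK293 was just above that range and that of A375 within it.

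**Figure D5:**
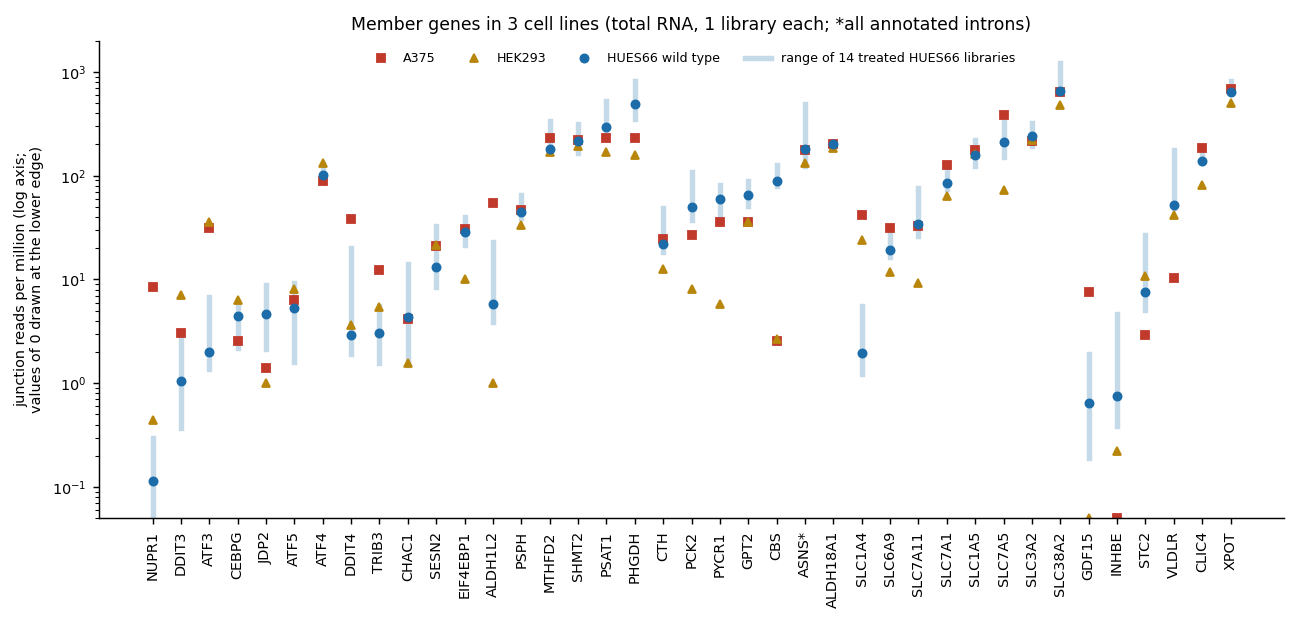
CPM (log axis) of 39 genes in A375 total RNA, HEK293 and wild-type HUES66, 1 library each, with the range of the 14 treated HUES66 libraries as a line and values of 0 at the lower edge. The spread between lines is wide for genes such as SLC1A4, at 41.5, 24.0 and 1.97 CPM, and narrow for ATF4, at 88.2, 132 and 102 CPM.

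Against HUES66, A375 was at least 2-fold higher for 8 of 39 genes (22.6% of all genes) and at least 2-fold lower for 6 (22.5% of all genes), or 5 without INHBE, which counts only through the 0.5 reads added to each library. NUPR1 was 64.6-fold higher in A375 (24.5 to 372), on 67 reads against 3. SLC1A4 was 20.9-fold higher (15.7 to 28.8), ATF3 15.7-fold (11.7 to 21.7), DDIT4 13.0-fold (10.2 to 17.0), GDF15 11.6-fold (6.80 to 21.6), ALDH1L2 9.34-fold (7.77 to 11.3), TRIB3 4.00-fold and DDIT3 2.88-fold. By role, 3 of 7 factors, 2 of 5 stress effectors and 1 of 8 transporters were among these. With each of the 14 treated HUES66 libraries in place of wild type, 6 of the 8 stayed at least 2-fold higher in A375, the exceptions being DDIT3 (12 of 14 libraries) and DDIT4 (13 of 14, treated HUES66 running from 1.9 to 19.9 CPM against 38.2 in A375). In the other direction HUES66 was 34.5-fold higher for CBS (22.8 to 58.0), which is uncertain because of CBSL, 5.12-fold for VLDLR (4.11 to 6.52), 3.18-fold for JDP2, 2.54-fold for STC2 and 2.11-fold for PHGDH (2.01 to 2.21). INHBE had 0 reads in A375 and 20 in HUES66, so it was at least 1.99-fold higher there, taking 3 counts per library as the floor. Against each treated library 3 of the 6 genes higher in HUES66 stayed at least 2-fold, and PHGDH did in 8 of 14 libraries (1.54-fold to 3.51-fold), JDP2 in 12 and STC2 in 13. With a minimum of 100 reads the 8 genes higher in A375 became 5.

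HEK293 was at least 2-fold above HUES66 for 4 of 37 genes (20.2% of all genes) and below it for 11 (19.9% of all genes). ATF3 was 17.6-fold higher in HEK293 (13.3 to 24.3), SLC1A4 12.1-fold (8.97 to 16.8) and DDIT3 6.54-fold (4.17 to 10.7). The fourth, ASNS, rests on 11 and 13 unshared reads, and over all introns HEK293 was at 0.731 of HUES66 (0.685 to 0.779). HUES66 was 10.3-fold higher for PYCR1 (7.86 to 13.9), 6.09-fold for PCK2 (4.84 to 7.87), 5.50-fold for ALDH1L2 (2.97 to 12.9), 4.39-fold for JDP2 (2.35 to 10.3) and 32.9-fold for CBS (22.5 to 52.5), with the reservation on CBS above. SLC7A11, PHGDH, SLC7A5, EIF4EBP1, INHBE and CHAC1 were between 2.69-fold and 3.65-fold higher in HUES66, INHBE on 2 reads in HEK293. Against the treated libraries 9 of these 11 stayed at least 2-fold higher in every one, but CHAC1 did in 7 of 14 and INHBE in 9.

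A375 stood above HEK293 for 13 of 37 genes (19.3% of all genes), and HEK293 above A375 for 4 (18.9% of all genes). GDF15 had 60 reads in A375 and 0 in HEK293, at least 22.8-fold higher. ALDH1L2 was 51.4-fold higher in A375 (28.3 to 119), NUPR1 17.1-fold (7.12 to 72.1), DDIT4 10.3-fold (7.25 to 15.4), PYCR1 6.09-fold (4.55 to 8.42) and SLC7A5 5.21-fold (4.79 to 5.68). SLC7A11, PCK2, EIF4EBP1, SLC6A9, CHAC1, CLIC4 and TRIB3 were between 2.25-fold and 3.5-fold higher. HEK293 was 4.09-fold higher for VLDLR (3.23 to 5.30), 3.60-fold for STC2 (2.30 to 6.05), 2.46-fold for CEBPG and 2.27-fold for DDIT3. Of the stress effectors 4 of 5 were at least 2-fold higher in A375, and 0 of 8 transporters were at least 2-fold higher in HEK293. Between no pair of lines did ATF4, ATF5, SESN2, PSAT1, PSPH, SHMT2, MTHFD2, ALDH18A1, SLC3A2, SLC38A2, SLC1A5 or XPOT differ by as much as 2-fold, and neither did ASNS over all introns. A median-ratio scaling shifts the log2 ratios by -0.14 for HEK293 against HUES66, 0.12 for A375 against HEK293 and -0.05 for A375 against HUES66. CTH, GPT2 and SLC7A1 were under 2-fold between every pair as counted here, but under that scaling SLC7A1 and CTH joined the genes higher in A375 than HEK293, making 15, and GPT2 those higher in HUES66 than HEK293, making 12.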

How the data were processed

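Per the submitters' processing notes, reads were aligned with STAR 2.7.1 to hg38 and handled with SAMtools 1.9. The authors deposited 1 splice junction file per library, from which column 5, the count of uniquely mapping reads per junction, was summed over GENCODE introns of 1 gene name. The authors also deposited 9 rMATS tables with p-values, adjusted p-values and inclusion differences (control minus knockdown, a score from -1 to 1), used as written, and 69 per-library columns of these were not used. Annotated introns took 96.66% to 98.32% of junction reads and introns of 1 gene 93.35% to 94.76%.

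Counts were tested with edgeR 4.0.16 (R 4.3.3; TMM, filterByExpr, quasi-likelihood F-test, terms library set and knockdown) over all 14 treated libraries, with Benjamini-Hochberg adjustment over 13393 genes and a threshold of 0.05, after the fit was tested on simulated data. The set term pairs libraries: residuals of libraries in the same set correlated with a median r of 0.56 (18 pairs), those of different sets with -0.26 (73 pairs). Ratios of single libraries used a pseudocount of 0.5 reads, at least 20 reads in the pair, a 2-fold limit and exact 95% intervals. Floors are 3 counts. Alternatives were DESeq2 1.42.0, other scaling and filters, no set term, wild type as a control, shared introns, leaving out each library and, chosen after seeing the data, treated HUES66 libraries in place of wild type. The 40 genes and the other lists were chosen with earlier results of these data known. All genes are accounted for, with library values for ATF4, the 12 with the largest difference in Total KD and up to 8 that passed in a test. The SLC genes in the closing observations were chosen after their values were seen. Promoters come from RefSeq (GRCh38.p14).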

Additional observations from a re-analysis of the deposited data

How the results depend on the processing

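In every alternative run (7 other settings and 14 fits that each left out 1 library) the number of the 38 genes that passed was 0 in each of the 3 isoform contrasts. At 96 hr against 48 hr, 25 passed, and 19 to 25 did under other settings and 22 to 25 with 1 library left out. Of these the lower ones were 19 (16 to 19 under other settings, 16 to 19 with 1 library left out) and the higher ones 6 (4 to 7 with 1 library left out). Without the library set as a replicate block, 2 genes were higher and 17 lower, and the block changed no call in the isoform contrasts. Genes above 0 in Total KD numbered 35, with 29 to 36 under other settings, where 29 comes from a stricter filter that tests fewer genes, and 34 to 35 with 1 library left out. DDIT4 in Total KD moved from 1.66 to 0.81 without the block, and between 1.45 and 2.08 with 1 library left out; the cause was not tested. The unshared reads of ASNS lost their call at 96 hr under DESeq2 (-1.13) and without Total KD at 48 hr (-0.95) or 96 hr (-0.89). With a minimum of 100 reads, genes at least 2-fold higher fell to 5 in A375 against HUES66, 2 in HEK293 against HUES66 and 2 in HEK293 against A375, since fewer genes are compared. The median r of the list was 0.43 over the 8 isoform knockdown libraries, where each set gives only 1 difference between N-short KD and N-long KD. With each treated HUES66 library in place of wild type, an alternative chosen after seeing the data, the 6 genes at least 2-fold higher in HUES66 than A375 became 3. No result reversed. Low counts limit precision: the SE in Total KD was 0.465 for GDF15, 0.435 for ASNS on unshared reads, 0.419 for DDIT3 and 0.388 for INHBE, and NUPR1 did not pass the filter.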

Other observations

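The nuclear excess of the transporters in A375 was shared by most other SLC genes. Of 153 SLC genes that are neither in the list nor in the SLC25 family, 125 (81.7%) were at least 2-fold higher in nuclear than in cytoplasmic RNA, against 22.8% of all genes, while 2 of 39 SLC25 genes (5.13%), which encode carriers of the mitochondrial inner membrane, were, and 11 of 39 were at least 2-fold higher in cytoplasmic RNA. The median log2 ratio was 2.09 in the first group and -0.71 in the second. This grouping was chosen after the values were seen, rests on 1 library per fraction and carries no test.

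The O-linked sugar domain exon of VLDLR, outside the treated libraries, was entered by 41 of 90 reads from the preceding exon in wild-type HUES66 (45.6%, exact 95% interval 35.0 to 56.4) and by 20 of 34 in HEK293 (58.8%, 40.7 to 75.4). In A375 total RNA only 6 such reads were found.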
